A study of Mus musculus with 2 samples.

Results

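The Toll-like and NOD-like pattern recognition receptors and their closest signalling partners were compared between small intestinal epithelium grafted onto the mouse colon and control colonic epithelium. The genes were chosen by symbol: every gene whose symbol starts with Tlr, Nlrp, Nlrc or Naip followed by a digit, together with Nod1, Nod2, Nlrx1, Aim2, Pycard, Casp1, Casp4, Myd88, Ticam1, Ticam2, Tirap, Ripk2, Cd14 and Ly96. Of the 17305 genes on the arrays with a probe set of their own, 34 fitted this rule. RefSeq lists 57 genes whose symbols fit it, and the other 23, Ripk2, Tlr5 and Tlr6 among them, were not analysed here. The graft derived from small intestine of EGFP-transgenic C57BL6 mice, whose epithelial cells were grown for 7 days as organoids, instilled into the colonic lumen of C57BL6 recipients and collected 4 weeks after transplantation. The control was colonic epithelium of a C57BL6 mouse with no graft. Ages, sexes and the state of the recipients' own colon are not given in the labels. Both epithelia were cut out by laser microdissection, sections of each specimen were pooled, and the graft and the colon with the highest RNA integrity were hybridised, 1 array each. There is therefore no replicate, no test and no p-value, and every difference describes these 2 arrays.

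Toll-like receptors bind microbial molecules at the cell surface or in endosomes and signal through the adaptors MyD88 and TRIF to NF-kB and interferon regulatory factors. NOD1 and NOD2 sense peptidoglycan fragments in the cytosol. Other NOD-like receptors and AIM2 assemble inflammasomes, in which the adaptor ASC brings together caspase-1, the protease that matures IL-1beta and IL-18 and opens gasdermin D pores. In the gut these sensors meet the microbiota, and their levels are known to differ between cell types and along the length of the intestine.

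The values are log2 expression levels, and each difference is the graft value minus the colon value, so that a difference of 1 is 2-fold. A gene was counted only if at least 1 of its levels reached 5.48, the median over all genes and both arrays. Agreement between probe sets of 1 gene is the only measure of error here: over 586 genes with 2 probe sets at that level, the gap between the differences of both probe sets had an SD of 0.48. This corresponds to an SD of 0.34 for the difference read from 1 probe set, called the SD per probe set, which leaves out variation between animals. As a check of the tissue labels, 10 small intestinal enterocyte markers were measured, and the 9 counted were all higher in the graft by at least 4-fold. Among them, Fabp1, Apoa4, Sis, Alpi, Gata4 and Mttp were counted through their graft level only, so the filter favoured this direction. Lct, at 4.92 in the graft, against 4.64 in the colon, was not counted. All 10 colonic absorptive cell markers had a lower graft value, by 2-fold or more. Car1, Aqp8, Atp12a, Tgm3, Hoxb13, Hoxd13, Cyp2c55 and Slc6a14 were counted through their colon level only. For these genes the filter favoured this direction. These lists were chosen with earlier results of these data known, so their counts are descriptions. Of 16 general epithelial markers, 1 was higher in the graft by at least 2-fold and 0 were lower, with a median difference of 0.30. Their differences ran from -0.77 for Ocln to 1.51 for Cldn4, with 9 above 0 and 7 below, so this median rests on values that disagree in sign. If those 16 genes are taken as the scale, every difference shifts by -0.30. No sample of ungrafted small intestine is among these arrays, so the gut region of origin and the grafting cannot be told apart. In such bulk samples, fewer cells of a type and less RNA per cell cannot be told apart either.

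Of the 34 members, 22 reached the median level, and 20 of these 22 were within 2-fold between the graft and the colon. The 2 past 2-fold were the cell-surface receptors Tlr1 and Tlr4, both lower in the graft. Several of the 20 differed by more than the SD per probe set, Casp1 (-0.99) and Tirap (0.71) among them. The other 12 members were too dim for their levels to be called similar. Of these 22, 2 (9.09%) were lower in the graft by at least 2-fold, where 5.68% of all 9392 counted genes were, and 0 were at least 2-fold higher, where 3.55% of all counted genes were. The background share corresponds to 1.25 of 22 genes, so the count of lower members is near it. At 1.5-fold, 6 members (27.3%) were lower, against 14.6% of counted genes, and 2 (9.09%) were higher, against 8.42%. At 4-fold, 1 member (4.55%) was lower, against 1.37% of counted genes, and 0 were higher, against 1.1%. The median difference of the 22 members was -0.16, beside -0.05 over all counted genes. Their differences ran from -2.77 for Tlr1 to 0.71 for Tirap. The choice of scale affects the split of all 2-fold calls: 38.5% of them were higher in the graft, and 16.8% after scaling on the general epithelial genes.

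**Figure D1:**
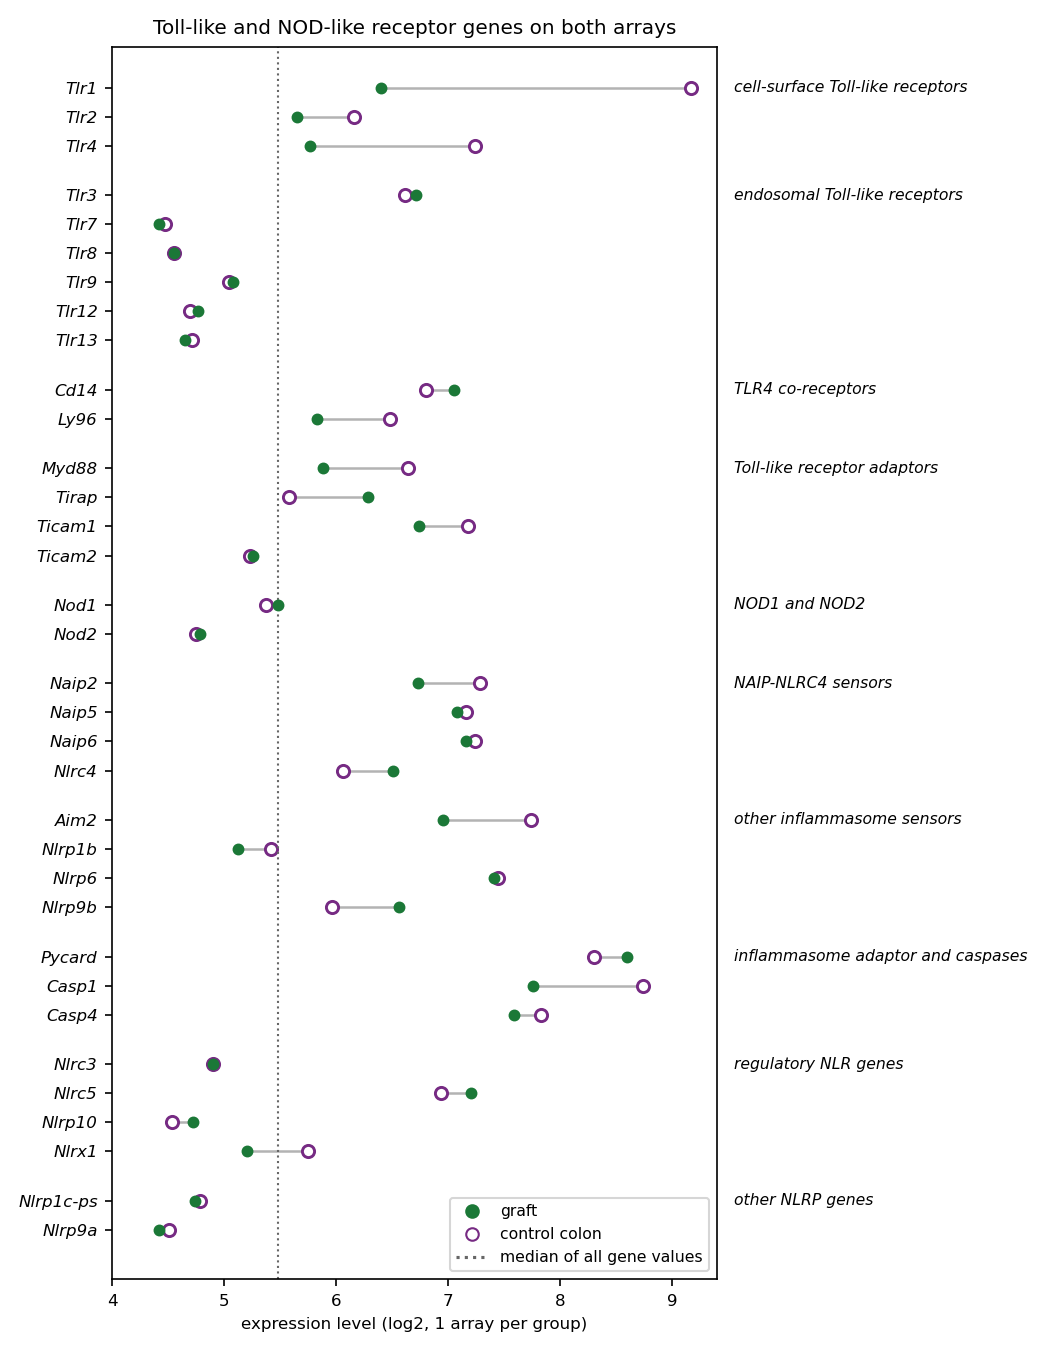
Log2 expression level of the 34 members in the graft (filled green circles) and in the control colon (open purple circles), 1 array each, ordered by role. The dotted line is the median of all gene values, 5.48, and Tlr1 and Tlr4 have the widest gaps, with the graft on the left.

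**Figure D2:**
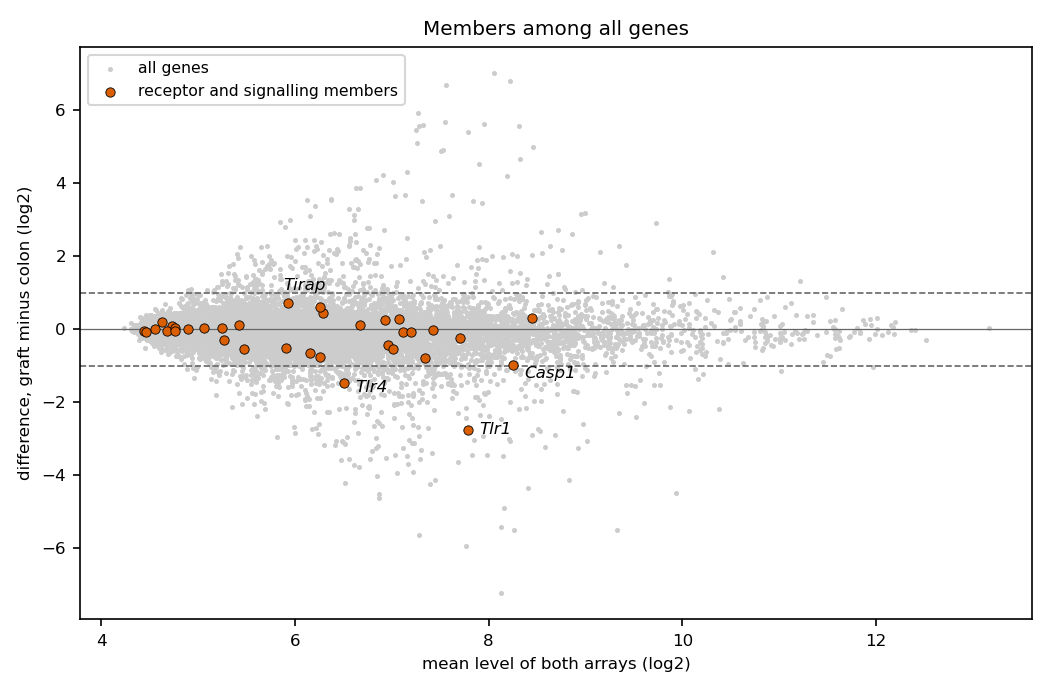
Difference, graft minus colon, against the mean level of both arrays, both on the log2 scale, for all 17305 genes (grey) and the 34 members (orange). Dashed lines mark 2-fold, and only Tlr1 and Tlr4 lie outside them among the members, with Casp1 just inside at -0.99.

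Promoter sequence was available from RefSeq (build GRCm38.p6, 250 bases before to 50 bases after the start) for 26 of the 34 members, but not for Tlr4. The promoters of Tlr1 and Tlr2 are shown because their proteins form 1 receptor while their levels differed unequally between the arrays. Capitals mark matches to the motifs searched, on either strand, and overlapping matches merge.
Tlr1: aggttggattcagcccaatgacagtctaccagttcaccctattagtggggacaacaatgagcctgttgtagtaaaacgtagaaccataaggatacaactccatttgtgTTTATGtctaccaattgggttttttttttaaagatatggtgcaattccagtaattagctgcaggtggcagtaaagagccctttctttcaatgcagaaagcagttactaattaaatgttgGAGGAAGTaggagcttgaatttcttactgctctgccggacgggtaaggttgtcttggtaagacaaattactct
Tlr2: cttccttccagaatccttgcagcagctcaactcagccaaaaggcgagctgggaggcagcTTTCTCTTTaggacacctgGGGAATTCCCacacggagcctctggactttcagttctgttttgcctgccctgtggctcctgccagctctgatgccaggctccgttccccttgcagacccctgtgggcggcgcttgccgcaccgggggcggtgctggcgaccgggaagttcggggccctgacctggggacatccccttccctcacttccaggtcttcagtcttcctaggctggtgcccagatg
The Tlr1 window lies at chr5:64933509-64933808 on the minus strand and the Tlr2 window at chr3:83841559-83841858 on the minus strand. The motifs searched were the core letters of NF-kB (GGNNNTTCC), of the interferon response element (AAANNGAAA), of the interferon-gamma activated site (TTCNNNGAA) and of PU.1 (GAGGAAGT), and those of the GATA factors (AGATAA), of CDX (TTTATG) and of HNF4 (CAAAGTCCA). In the Tlr1 window the capitals are a match to the CDX letters at bases 109 to 114, counted from the first base printed, and a match to the PU.1 letters at bases 228 to 235. In the Tlr2 window they are a match to the interferon response letters at bases 60 to 68 and overlapping NF-kB matches on both strands from base 79 to base 88. NF-kB letters are found in 18.5% of all 32851 promoter windows of this length and in 8 of the 26 member windows. PU.1 letters are found in 3.20% of all windows and in 5 of the 26, those of Aim2, Nlrp1b, Pycard, Tlr1 and Tlr9. For the others, the share of all windows and the number of the 26 member windows were 10.6% and 7 for the interferon response element, 8.30% and 4 for the interferon-gamma activated site, 11.2% and 5 for the GATA factors, 11.9% and 4 for CDX, and 0.475% and 0 for HNF4. The NF-kB and interferon response letters first searched were replaced by shorter ones, and the promoters shown were picked, after matches to the first letters and in other members had been seen. The first letters matched more member windows for NF-kB and fewer for the interferon response element, so these counts are descriptions that depend on the letters chosen. A match is a run of letters, and binding was not measured.

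The 3 cell-surface receptors measured here recognise lipoproteins and lipopolysaccharide of bacteria, while Tlr5 and Tlr6 were not analysed. Tlr1, which pairs with TLR2 to bind triacylated lipopeptides, was at 6.40 in the graft, against 9.17 in the colon, a difference of -2.77 or 6.82-fold lower in the graft. Tlr4, the lipopolysaccharide receptor, was at 5.76 in the graft, against 7.24 in the colon, 2.79-fold lower. Tlr2, the partner of TLR1, was at 5.65 in the graft, against 6.16 in the colon, a difference of -0.51 that is larger than the SD per probe set but under 2-fold. All 3 were thus lower in the graft, Tlr1 and Tlr4 by well over that SD. Each is represented by 1 probe set, so no second probe set bears on them. Whether transcripts of related receptors bind the Tlr1 probes was not tested.

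TLR4 works with co-receptors that deliver and hold lipopolysaccharide, and these did not share its difference in size. Cd14, which transfers lipopolysaccharide to the receptor, was at 7.05 in the graft, against 6.80 in the colon, a difference of 0.25 that turned to -0.05 with scaling on the general epithelial genes. Ly96, which encodes the lipopolysaccharide-binding subunit MD-2, was at 5.83 in the graft, against 6.48 in the colon, a difference of -0.65. Among the signalling adaptors, Myd88, used by nearly all Toll-like receptors, was at 5.88 in the graft, against 6.64 in the colon, a difference of -0.76. Ticam1, which encodes TRIF, the adaptor of TLR3 and of endosomal TLR4, was at 6.74 in the graft, against 7.18 in the colon, a difference of -0.44. Tirap, which bridges TLR2 and TLR4 to MyD88, went the other way, at 6.29 in the graft, against 5.58 in the colon, a difference of 0.71. Ticam2, the bridge between TLR4 and TRIF, stayed below the median level on both arrays, at 5.26 in the graft, against 5.23 in the colon. None of these 6 partners reached 2-fold, and Myd88 did so only with scaling on the general epithelial genes, at -1.06.

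The endosomal receptors bind nucleic acids and, in the case of mouse TLR12, a protozoan protein. Tlr3, the receptor of double-stranded RNA, was the only 1 of 6 to reach the median level, at 6.72 in the graft, against 6.62 in the colon, a difference of 0.10 that turned to -0.20 with scaling on the general epithelial genes. Tlr7, Tlr8, Tlr9, Tlr12 and Tlr13 lay between 4.41 and 5.08 in the graft, against a range of 4.47 to 5.04 in the colon. Their differences ran from -0.06 to 0.08, and Tlr8 had exactly equal values on both arrays. At such levels signal cannot be separated from background, so no difference was detectable for these 5 genes and its size is not bounded.

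NOD1 and NOD2 were also dim. Nod1, the sensor of peptidoglycan mostly of Gram-negative bacteria, was at 5.48 in the graft, against 5.37 in the colon, so it only just reached the median level. Nod2, the muramyl dipeptide sensor known from Paneth and stem cells, was at 4.78 in the graft, against 4.74 in the colon, below the 20th percentile of each array (4.79 in the graft, against 4.77 in the colon). The Paneth cell markers differed between the same arrays. Of 8, 5 were higher in the graft by at least 4-fold, where 1.1% of all counted genes were. None were 2-fold lower, where 5.68% of all counted genes were. Levels of the 8 ran from 5.82 to 11.62 in the graft, against levels from 4.22 to 7.83 in the colon. The 5 higher, Lyz1, Ang4, Defa24, Mmp7 and Itln1, reached the median level only in the graft, so the filter favoured this direction.

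The sensors of bacterial flagellin and secretion systems were well above the median level on both arrays. Naip5 and Naip6, whose proteins bind flagellin, were at 7.07 and 7.16 in the graft, against 7.15 and 7.24 in the colon, so that each differed by -0.08. Naip2, whose protein binds the inner rod of type III secretion systems, was at 6.73 in the graft, against 7.28 in the colon, a difference of -0.55. The Naip genes are near-identical neighbours in the genome, so probes may be shared and no value can be tied with certainty to 1 of them. Nlrc4, which NAIP proteins recruit to form the inflammasome, was at 6.51 in the graft, against 6.06 in the colon, a difference of 0.45, larger than the SD per probe set but under 2-fold.

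Of the other inflammasome sensors, Nlrp6, which acts in intestinal epithelium and goblet cell mucus release, was almost equal, at 7.41 in the graft, against 7.44 in the colon. Its difference of -0.03 turned to 0.04 with quantile normalization. Goblet cell markers, of which 7 were measured, had a median difference of 0.13, with 1 (Zg16) lower in the graft by at least 4-fold and 0 at least 2-fold higher. Aim2, the cytosolic DNA sensor, was at 6.95 in the graft, against 7.74 in the colon, a difference of -0.79, and passed 2-fold only with scaling on the general epithelial genes, at -1.09. Nlrp9b, an RNA virus sensor of mouse intestinal epithelium, was at 6.56 in the graft, against 5.96 in the colon, a difference of 0.60. Nlrp1b, the sensor of anthrax lethal toxin, stayed just below the median level, at 5.12 in the graft, against 5.42 in the colon. Aim2 and Nlrp9b thus differed in opposite directions, each by more than the SD per probe set and by less than 2-fold.

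The shared core of the inflammasomes was brightly measured. Casp1, the IL-1beta and IL-18 converting protease, was at 7.76 in the graft, against 8.74 in the colon, 1.98-fold lower and the member closest to the 2-fold line. With scaling on the general epithelial genes its difference was -1.29. Casp4, the mouse caspase-11 that binds cytosolic lipopolysaccharide, was at 7.59 in the graft, against 7.83 in the colon, a difference of -0.24. Pycard, which encodes the adaptor ASC, was at 8.60 in the graft, against 8.30 in the colon, a difference of 0.30 that was -0.0013 with that scaling. Caspase and adaptor were thus not lower together: Casp1 differed by more than the SD per probe set and Pycard by less than it.

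Among the NOD-like genes with regulatory roles, Nlrc5, the transactivator of MHC class I genes, is covered by 19 probe sets, the most of any member, and they disagreed in size. The brightest was at 7.21 in the graft, against 6.93 in the colon, a difference of 0.27. Over all 19, the graft was higher on 16, lower on 1 and equal on 2, with a median of 0.29, an SD of 0.49 and a range from -0.12 to 2.10. The probe set at the top of that range was at 7.04 in the graft, against 4.93 in the colon, more than 4-fold higher, and it was the only 1 of the 19 past 2-fold. Over the 11 probe sets that reached the median level the median was 0.59. With quantile normalization, 17 were higher and 2 lower in the graft, with a median of 0.34. With scaling on the general epithelial genes, which shifts every probe set alike, 9 were higher and 10 lower, with a median of -0.01. Probe sets of 1 gene share its transcript and are not replicates, and which exons they cover was not analysed here.

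**Figure D3:**
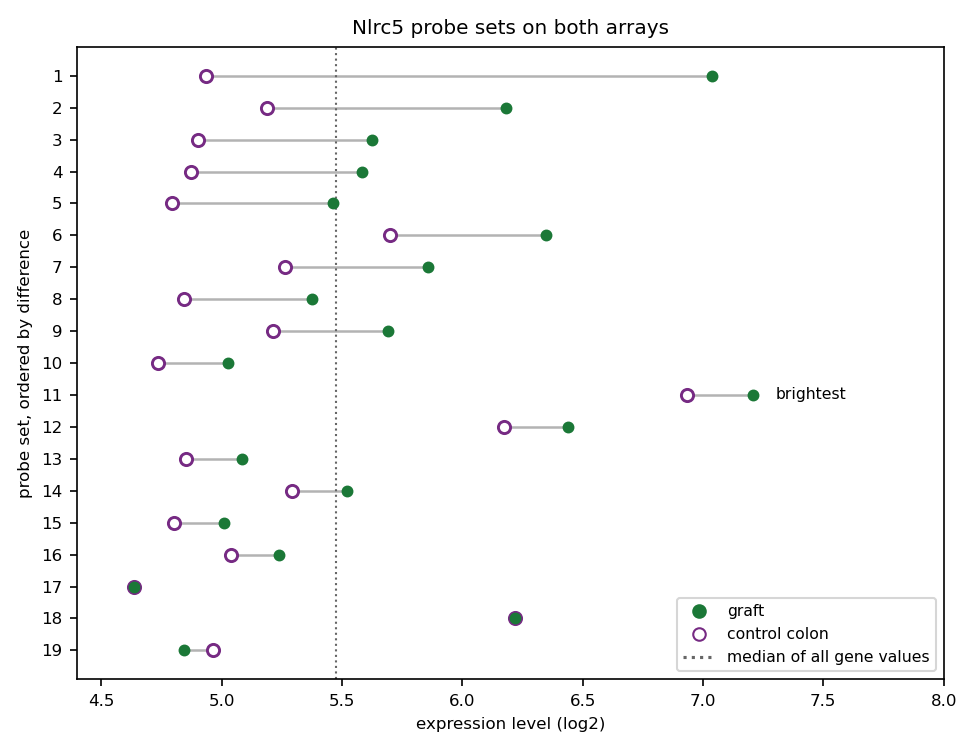
Log2 level of the 19 Nlrc5 probe sets in the graft (filled green circles) and in the control colon (open purple circles), ordered by difference, with the median of all gene values as a dotted line. The graft lies to the right on 16 of 19, by 2.10 at most and by 0.27 on the brightest.

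Nlrx1, a mitochondrial member that dampens antiviral and NF-kB signalling, was at 5.21 in the graft, against 5.75 in the colon on its brighter probe set, a difference of -0.54. Its other probe set differed by -0.45, so both were lower in the graft. Nlrc3, an inhibitor of several innate pathways, was at 4.90 on both arrays with exactly equal values. Nlrp10 lay at 4.72 in the graft, against 4.53 in the colon. The pseudogene Nlrp1c-ps lay at 4.74 in the graft, against 4.78 in the colon, and Nlrp9a at 4.42 in the graft, against 4.51 in the colon. In all, 12 members stayed below the median level on both arrays, with differences from -0.30 for Nlrp1b to 0.19 for Nlrp10.

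Genes that work with these receptors were examined as lists, chosen with earlier results of these data known, so their counts are descriptions. The shares over all counted genes were 3.55% higher and 5.68% lower in the graft by at least 2-fold. No list was tested against these shares, against another list or against the rest. Of 19 counted genes of the Toll-like and IL-1 receptor signalling chain, 0 were 2-fold apart in either direction, with a median of -0.06. The most different were the NF-kB subunits Rel, at 6.69 in the graft, against 5.73 in the colon (0.96), and Relb, at 5.76 in the graft, against 6.26 in the colon (-0.50). The kinase genes Irak2 and Mapk8 differed by -0.45 and 0.45. Rel was past 2-fold with quantile normalization. Of 7 counted genes for receptor trafficking and ligand delivery, 0 were 2-fold apart. Their median was 0.21, or -0.27 with scaling on the general epithelial genes. The most different were Ly86 (0.39), which encodes the co-receptor MD-1, the chaperone Hsp90b1 (0.32), Hmgb1 (0.28) and Ap3b1 (-0.27). Ly86 was counted through its graft level only.

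Of 16 counted negative regulators of the pathway, 1 was higher in the graft by at least 2-fold and 2 were lower, with a median of -0.12. Tnip3, an inhibitor of NF-kB activation that binds A20, was at 5.06 in the graft, against 6.86 in the colon, 3.49-fold lower. It was counted through its colon level only. The nuclear receptor Pparg, which represses inflammatory genes, was at 6.84 in the graft, against 7.88 in the colon, 2.06-fold lower, and was within 2-fold with quantile normalization. Nfkbiz, a nuclear IkB protein that acts on a subset of NF-kB targets, was at 7.32 in the graft, against 6.08 in the colon, 2.36-fold higher, and was within 2-fold with scaling on the general epithelial genes. The endonuclease Zc3h12a (0.97), the phosphatase Ptpn6 (0.65), Tnip1 (-0.75) and the NF-kB inhibitor Nfkbia (-0.61) were within 2-fold, Tnip1 not with that scaling. Zc3h12a was counted through its graft level only.

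Of 14 counted inflammasome partners and products, 1 was higher in the graft by at least 2-fold and 4 were lower, with a median of -0.19. Il18, the cytokine matured by caspase-1, was at 5.42 in the graft, against 8.89 in the colon, 11.1-fold lower, and its graft value is below the median of all genes. Il1rn, the IL-1 receptor antagonist, was at 5.21 in the graft, against 7.48 in the colon, 4.81-fold lower. Its graft value is also below the median of all genes. Nek7, a kinase that licenses inflammasome assembly, was at 5.83 in the graft, against 7.05 in the colon, and Txnip, a redox protein linked to inflammasome activation, was at 9.15 in the graft, against 10.36 in the colon, each 2.32-fold lower. Gsdmc2, a gasdermin of the intestinal epithelium, was at 11.38 in the graft, against 9.26 in the colon, 4.34-fold higher. Its relative Gsdmc4 differed by 0.70, and the 2 can share probes. Gsdmd, the pore-forming target of caspase-1, was at 7.66 in the graft, against 7.60 in the colon. Gsdme (-0.90), Il18bp (0.70) and Ninj1 (-0.55) were within 2-fold, Gsdme not with scaling on the general epithelial genes.

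Of 10 counted partners of NOD1 and NOD2, 1 was higher in the graft by at least 2-fold and 1 was lower, with a median of -0.31. Slc15a1, a peptide transporter that can carry muramyl dipeptide, was at 7.48 in the graft, against 9.45 in the colon, 3.92-fold lower. Irgm1, an interferon-induced GTPase of autophagy, was at 8.13 in the graft, against 6.61 in the colon, 2.87-fold higher. Slc46a3 (0.86), the necroptosis kinase Ripk3 (0.85), the ubiquitin ligase Birc2 (-0.62) and Erbin (-0.53) were within 2-fold. Slc46a3 and Ripk3 were counted through their graft level only. Of 8 counted cytosolic nucleic acid sensors and adaptors, Ifih1, which encodes the RNA sensor MDA5, was 2.01-fold lower, at 7.14 in the graft, against 8.15 in the colon, and was within 2-fold with quantile normalization. In that list Zbp1 (0.85), Oas1a (0.46), Trim25 (0.29) and the adaptor Mavs (0.29) were within 2-fold. Of 4 counted other pattern recognition genes, 0 were 2-fold apart: Ciita (0.70), the peptidoglycan-binding Pglyrp1 (-0.27), Clec2h (0.12) and Scarb1 (0.00). Ciita was counted through its graft level only.

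Of 18 counted genes that NF-kB and microbial signals often induce, 5 were higher in the graft by at least 2-fold, where 3.55% of all counted genes were, and 2 were lower, where 5.68% were, with a median of 0.29, or -0.07 with scaling on the general epithelial genes. The hydrogen peroxide source Duox2 was at 9.15 in the graft, against 6.04 in the colon, and its maturation factor Duoxa2 at 9.66 in the graft, against 6.21 in the colon. The antimicrobial lectins Reg3b and Reg3g were at 7.29 and 6.07 in the graft, against 4.50 and 4.54 in the colon, so both reached the median level only in the graft. Nfkbiz was the other of the 5. Because this list was chosen with earlier results of these data known, its counts are no independent comparison with the shares over all genes. The acute-phase gene Saa1 was 44.9-fold lower, at 5.51 in the graft, and the chemokine Ccl28 was at 6.55 in the graft, against 8.99 in the colon. Saa1 has near-identical relatives that can share its probes. Nos2 (0.87), Saa2 (-0.74), Ptgs2 (0.67) and Nfkbia were within 2-fold, Saa2 not with scaling on the general epithelial genes. Nos2 and Ptgs2 were counted through their graft level only, and Saa2 through its colon level only.

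**Figure D4:**
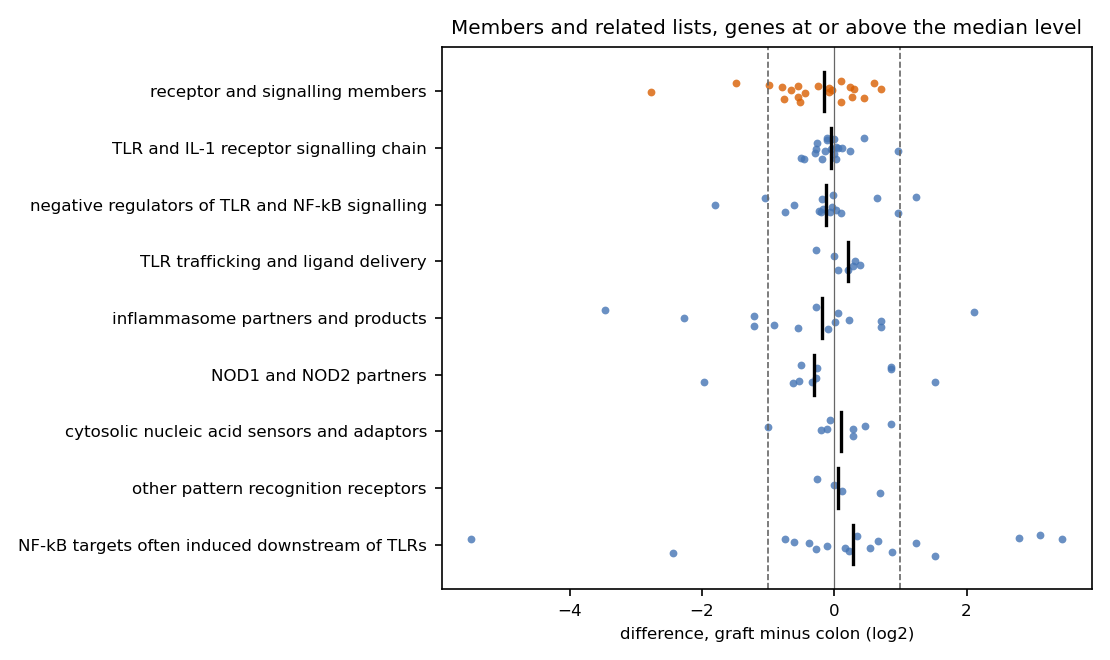
Difference, graft minus colon (log2), of the 22 counted members (orange) and of the counted genes of 8 related lists (blue), with the median of each as a black bar and dashed lines at 2-fold. Genes lie past the lines on both sides among the negative regulators, the inflammasome partners, the NOD1 and NOD2 partners and the NF-kB targets, and none do in the signalling chain, the trafficking list and the other pattern recognition genes.

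Several of these receptors are also expressed by leukocytes and stroma, and marker levels of those cells were read from the same arrays. Of 12 macrophage and monocyte markers, 6 were counted and 0 were 2-fold apart, with a median of 0.25 over those 6 and of 0.10 over all 12. Their summed linear level was 9.31 in the graft, against 9.20 in the colon on the log2 scale, and single markers lay between 4.72 and 6.89 in the graft, against a range of 4.63 to 7.01 in the colon. The 6 counted were C1qb (0.73), Cd68 (0.55), C1qa (0.39), Cx3cr1 (0.11), C1qc (-0.05) and Lyz2 (-0.12). C1qb, Cd68 and C1qa were counted through their graft level only. The other 6, Adgre1, Csf1r and Itgam among them, stayed below the median level on both arrays. Of 10 neutrophil markers, S100a8 and S100a9 were higher in the graft by at least 2-fold, by 2.01 and 1.36, and reached the median level only there. The summed level of all 10, which includes these 2, was 8.64 in the graft, against 7.96 in the colon. The other 8 neutrophil markers stayed below the median level on both arrays. Of 8 dendritic cell and 9 T cell markers, 0 reached it. Of 5 pan-leukocyte markers, 3 were counted, Ptprc (0.78), Cd52 (0.35) and Laptm5 (0.11), with 0 past 2-fold. Ptprc was counted through its graft level only. Of 8 endothelial markers, Egfl7 alone was counted, through its graft level only, and was 2.34-fold higher in the graft. Of 12 fibroblast and smooth muscle markers, 11 were counted and 1 (Lum) was lower in the graft by at least 2-fold, with a summed level of 9.73 in the graft, against 10.12 in the colon. Of 7 B and plasma cell markers, 3 were counted. Igha, the immunoglobulin A heavy chain, was higher in the graft by 2.71. Cd79b (0.38), counted through its graft level only, and Jchain (0.29) were within 2-fold. The rest stayed below the median level on both arrays. The differences of Tlr1 and Tlr4, -2.77 and -1.48, thus stood beside medians of 0.25 for the counted macrophage markers and -0.30 for the counted stromal markers, all of which shift by -0.30 on the general epithelial scale. The part of stromal or immune cells in these differences was not tested.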

How the data were processed

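The authors deposited a log2 expression level for each probe set on 2 single-channel arrays. The log2 scale was read from the values (4.19 to 13.46); background correction, software and normalization: not given in the sources used here. RNA amplification started from 4.33 ng, per the labels, which can distort single transcripts. Of 24074 probe sets, 18904 have a single gene symbol in the platform annotation; the brightest by the mean of both arrays stood for each of 17305 genes. Array medians were 5.44 in the graft, against 5.43 in the colon, and 12.1% of probe sets had exactly equal values. No detection call exists, so differences against dim values are understated by an unknown amount. Differences were not normalized further. Members that reached the median level are named with both values, and from each related list the genes past 2-fold and up to 4 more. The members and lists were chosen with earlier results of these data known. Counting was tested on simulated data. Python 3.11.15, pandas 2.3.3 and NumPy 2.4.6 were used. The number of arrays limits the precision.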

Additional observations from a re-analysis of the deposited data

How the results depend on the processing

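The counts were recomputed with the mean of all probe sets of a gene, the probe set brightest on the colon array, no filter, a filter at the 60th percentile, quantile normalization, centring on the median and scaling on the 16 general epithelial genes. Under all but the last, 2 members were lower in the graft by at least 2-fold and 0 higher. With scaling on the general epithelial genes 5 were lower (Tlr1, Tlr4, Casp1, Aim2 and Myd88), while 1076 of 9795 counted genes were lower, and the median difference of the counted members was -0.54. At a 1.5-fold line, 2 members were higher and 6 lower, and at 4-fold 1 was lower. The difference of Tlr1 ran from -3.07 to -2.70 and that of Tlr4 from -1.78 to -1.43. In all, 11 members with a difference of at most 0.30 turned sign under at least 1 of these alternatives, all but Nlrp6 through the epithelial scaling, which shifts every gene by -0.30. Most members have 1 probe set, so the choice of probe set cannot move them. No paired analysis was possible because each group has 1 array, and for the same reason no replicate could be left out. Signal near background limits the 12 dim members.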

Other observations

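2 further gene groups were read after the Nlrc5 values had been seen, so their counts are descriptions of the same arrays. Of 9 genes of MHC class I and its peptide loading chain, 7 were measured, and none of these encodes a class I heavy chain. Of the 7, 3 were higher in the graft by at least 2-fold, where 3.55% of all counted genes were. None were 2-fold lower, where 5.68% of all counted genes were, and the median was 0.71. On the general epithelial scale every difference shifts by -0.30. A link of this group to Nlrc5 was not tested. The peptide transporter Tap1 was at 6.95 in the graft, against 5.25 in the colon, 3.24-fold higher, and reached the median level only in the graft. The immunoproteasome subunits Psmb9 and Psmb8 were at 9.09 and 8.16 in the graft, against 7.55 and 6.69 in the colon, 2.90-fold and 2.76-fold higher. The light chain B2m differed by 0.71, Psmb10 by 0.46, Tap2 by -0.04 and Tapbp by -0.23.

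Of 7 measured interferon-induced GTPases, which act against intracellular pathogens, 6 were counted and 2 were higher in the graft by at least 2-fold, where 3.55% of all counted genes were. Iigp1 was at 7.66 in the graft, against 5.06 in the colon, 6.07-fold higher, and Irgm1 was 2.87-fold higher. None were 2-fold lower, where 5.68% of all counted genes were. The guanylate-binding proteins Gbp3 (0.87), Gbp8 (0.80), Gbp4 (0.61) and Gbp7 (0.51) had positive differences within 2-fold. Iigp1, Gbp3, Gbp4 and Gbp8 reached the median level only in the graft, so the filter favoured this direction.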
